A study of Mus musculus with 8 samples.

Results

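The mouse miRNAs mmu-miR-34a-5p, mmu-miR-34b-5p, mmu-miR-34c-5p, mmu-miR-192-5p, mmu-miR-194-5p and mmu-miR-215-5p are 6 of the 1881 mouse miRNAs with probes on a 1-colour Agilent miRNA array, and they were chosen by name as the miR-34 family and the clusters of miR-192, miR-194 and miR-215. Their signals were compared between serum of irradiated mice (7 Gy, n = 4) and serum of non-irradiated mice (0 Gy, n = 4), with 1 array per serum. The 7 Gy group was exposed to X-rays and bled at 72 h after irradiation. The 0 Gy group received no X-rays, and its time of bleeding is not given in the sources used here. All 8 sera came from male C57BL/6NJcl mice aged 8 weeks, with no transgene and no other treatment. The labels do not say whether each serum came from a single animal, so that the p-values below measure the spread between these sera.

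The tumour suppressor p53 is stabilised when ionizing radiation breaks DNA, and it then switches on genes that halt the cell cycle or start apoptosis. The miR-34 genes are direct p53 targets, and their products repress cyclins, cyclin-dependent kinases and anti-apoptotic proteins. MiR-192, miR-194 and miR-215 are also counted among the miRNAs of this response, and in human cells miR-192 and miR-215 raise the cell cycle inhibitor p21. In the body miR-192 and miR-194 are abundant in liver, intestine and kidney, whereas miR-34b and miR-34c are made mainly in airway epithelium, testis and brain.

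The mature sequences, which show the relation between these miRNAs, were found in RefSeq for 5 of the 6. They are printed from 5′ to 3′, with the seed, bases 2 to 8 that pair with target mRNAs, in capitals.
miR-34a-5p: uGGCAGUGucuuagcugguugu
miR-34b-5p: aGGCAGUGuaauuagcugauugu
miR-192-5p: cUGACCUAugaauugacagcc
miR-215-5p: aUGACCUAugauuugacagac
miR-194-5p: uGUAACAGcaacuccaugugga

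MiR-34a-5p and miR-34b-5p shared the seed GGCAGUG with miR-449a-5p and miR-449c-5p, and these 4 were all the miRNAs with that seed among the 1679 mature mouse miRNAs read. MiR-34c-5p and miR-449b were not found by name among the 1679, so that their seeds could not be compared and the 4 may be incomplete. MiR-192-5p and miR-215-5p were the only 2 with the seed UGACCUA. Counted from 1 at the 5′ end, with the base of miR-192-5p first, they differed at 3 of 21 bases, C1A, A12U and C20A. None of these positions lies in the seed. Their array signals could therefore share target RNA by cross-hybridization, and this was not tested. MiR-194-5p was alone with the seed GUAACAG.

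On GRCm38.p6, Mir34a lay at chr4:150068454-150068555 on the plus strand with no overlapping gene in the annotation. Mir34b and Mir34c lay 451 bases apart on the minus strand of chromosome 9, at chr9:51103562-51103645 and chr9:51103034-51103110, overlapping the genes Hoatz and Btg4. Mir192 and Mir194-2 lay 115 bases apart at chr19:6264844-6264932 and chr19:6264643-6264728. Mir215 and Mir194-1 lay 195 bases apart at chr1:185313581-185313692 and chr1:185313319-185313385, overlapping Iars2. MiR-194-5p is thus the product of both clusters, and its array signal does not tell them apart.

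The deposited signal of a miRNA is the sum over its probes after background subtraction, with 0.1 written wherever the software did not call it detected. Signals are given here in array units, after the 90th percentiles of all arrays had been made equal, and probes of different miRNAs differ in affinity, so that no signal of a miRNA is set against that of another as an amount. The arrays differed in quality. Between 378 and 687 miRNAs were called detected on the 7 Gy arrays and between 531 and 603 on the 0 Gy arrays. Control RNAs added before labelling had a log10 signal of 1.95 to 2.31 on 7 Gy replicates 1, 3 and 4, which the scanner software marked as out of range, 3.35 on 7 Gy replicate 2, and 2.73 to 3.68 on the 0 Gy arrays. All 8 arrays shared 1 slide, on which irradiated and non-irradiated sera lay in different columns, so that column and dose cannot be told apart. Erythrocyte-rich miR-451a and miR-486a-5p, which are prominent in rodent serum, were called detected on all 8 arrays.

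Signal of the 6 miRNAs in irradiated serum was confined to few arrays. The number called detected was 0, 5, 0 and 1 of 6 on 7 Gy replicates 1 to 4, against 5, 4, 3 and 4 of 6 on 0 Gy replicates 1 to 4. MiR-34a-5p, miR-192-5p, miR-194-5p and miR-215-5p were each detected on more 0 Gy than 7 Gy arrays, and none of the 6 on more 7 Gy than 0 Gy arrays. Of all 804 miRNAs detected on at least 1 array, 270 (33.6%) were detected on more 0 Gy arrays and 162 (20.1%) on more 7 Gy arrays. MiR-34b-5p, miR-192-5p, miR-194-5p and miR-215-5p were detected among the irradiated sera on replicate 2 alone, as were 186 (23.1%) of the 804. Replicate 2 was also the irradiated array with its labelling controls in range, and the part of labelling in the detection calls was not tested.

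MiR-34a-5p, the family member that most tissues express, had signals of 0.433, 170, 0.463 and 2.03 in 7 Gy replicates 1 to 4, against 101, 45.3, 50.1 and 58.2 in 0 Gy replicates 1 to 4. The values of 0.433 and 0.463 are the scaled placeholders of arrays where it was not detected. Irradiated serum thus held both the highest and the 3 lowest values, and the groups overlapped. It was called detected in 2 of 4 irradiated and 4 of 4 non-irradiated sera (two-sided Fisher's exact test, p = 0.429). On 7 Gy replicate 4 the call rested on dim spots, since 0 of its 30 spots there were well above background. Before scaling, its signals were 0.1, 450, 0.1 and 2.68 in the 7 Gy sera and 258, 100.3, 47.0 and 62.6 in the 0 Gy sera, with the same array on top.

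Values under 100 were set to 100 in the comparison across all miRNAs, as the study's lower cut-off was read. At this floor 3 of 4 arrays of each group lay at 100 for miR-34a-5p, and it averaged 118 ± 35.2 in 7 Gy serum and 100.2 ± 0.321 in 0 Gy serum (SD, n = 4 each). Its log2 fold change was 0.19 with a standard error of 0.19 (limma, adjusted p = 0.534). The sign hung on the floor. With a floor of 10 the log2 fold change was −1.57 (limma, adjusted p = 0.282), and with a floor of 1 it was −3.81 (limma, adjusted p = 0.141; two-sided exact permutation test, p = 0.143). Without 7 Gy replicate 2 it was −0.0023 at the floor of 100 (limma, adjusted p = 0.990). None of these passed the threshold of 0.05.

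On 7 Gy replicate 2 alone, miR-34a-5p exceeded all 4 non-irradiated sera, at 170 against at most 101. Over the 442 miRNAs detected on that array and on all 0 Gy arrays, 78 (17.6%) lay above every 0 Gy serum, 85 (19.2%) below and 279 within their range. A fit of the 5 arrays with labelling controls in range gave miR-34a-5p a log2 fold change of 0.77 at the floor of 100. That fit holds a single irradiated serum, which is assumed to vary like the others. At this floor 3 of the 4 0 Gy values were tied at 100, although their signals ranged over 45.3 to 101. The fit therefore does not hold the spread of the 0 Gy sera.

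MiR-34b-5p and miR-34c-5p, which are made from a shared transcript, were near or below the limit of the array. MiR-34b-5p was called detected in 1 of 4 irradiated sera, with a signal of 2.02 in replicate 2, and in 1 of 4 non-irradiated sera, with 1.18 in replicate 1 (two-sided Fisher's exact test, p = 1.0). MiR-34c-5p was detected in 0 of 8 sera, and the brighter of its probes averaged 7.53 on 7 Gy replicate 2 and 5.09 on 0 Gy replicate 1. Both remained untested in the limma fit. Requiring spots above 3 times their error left miR-34b-5p detected in 1 irradiated and 0 non-irradiated sera.

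MiR-449a-5p, miR-449b and miR-449c-5p, relatives of miR-34 known from multiciliated cells, were detected in 0 of 8 sera each. The other arms of the hairpins were nearly as sparse. Of 7 such arms on the array only miR-192-3p was called detected, in 7 Gy replicate 2.

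**Figure D1:**
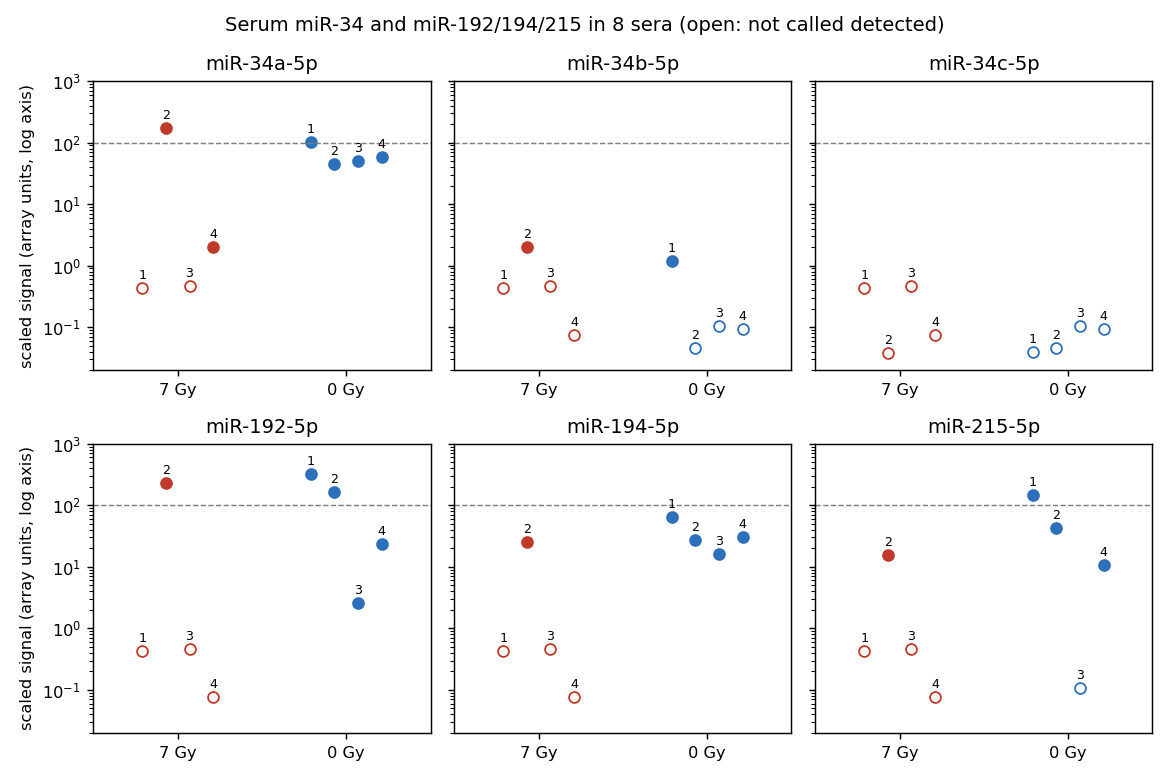
Scaled signal (array units, log axis) of the 6 miRNAs in each 7 Gy and 0 Gy serum, numbered by replicate; open points are placeholders of arrays where the miRNA was not called detected, and a dashed line marks 100, the floor. For miR-34a-5p, 7 Gy replicate 2 (170) lies above every 0 Gy serum, and the other 7 Gy sera lie below all of them.

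MiR-192-5p, a liver and gut miRNA, was detected only in replicate 2 of the irradiated sera, with a signal of 230. In 0 Gy replicates 1 to 4 it had signals of 324, 167, 2.61 and 23.6. The irradiated value lay between those of the non-irradiated sera, of which 2 of 4 stood below the floor of 100. Its log2 fold change was −0.31 with a standard error of 0.47 (limma, adjusted p = 0.657) at that floor. A floor of 1 gave −3.45 (exact permutation test, two-sided, p = 0.2), and 0.65 was found with the labelling signal as a covariate (limma, adjusted p = 0.585). Detection in 1 of 4 irradiated and 4 of 4 non-irradiated sera gave p = 0.143 (two-sided Fisher's exact test). In 0 Gy replicate 3 none of its 30 spots was well above background, so that the value of 2.61 and any ratio made with it are uncertain.

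MiR-194-5p, which is made from both clusters, gave a signal of 25.0 in 7 Gy replicate 2 and was not detected in the other irradiated sera. Its signals in 0 Gy replicates 1 to 4 were 65.6, 27.3, 16.4 and 30.5, a 3.99-fold range. The irradiated value that was measured lay between those of the non-irradiated sera. All 8 values were under 100, so that miR-194-5p did not enter the fit at that floor. With a floor of 1 its log2 fold change was −3.78 with a standard error of 1.06 (limma, adjusted p = 0.0846; two-sided exact permutation test, p = 0.0571). Detection differed as for miR-192-5p, in 1 of 4 irradiated and 4 of 4 non-irradiated sera (two-sided Fisher's exact test, p = 0.143).

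MiR-215-5p, the seed twin of miR-192-5p, had a signal of 15.3 in 7 Gy replicate 2 and was not detected in the other irradiated sera. In the non-irradiated sera it had 145, 42.2 and 10.6 in replicates 1, 2 and 4 and was not detected in replicate 3. The measured irradiated value again fell within the non-irradiated range. At the floor of 100 only 0 Gy replicate 1 stood above it, and the log2 fold change was −0.13 with a standard error of 0.14 (limma, adjusted p = 0.555). With a floor of 1 it was −3.01 (two-sided exact permutation test, p = 0.257). Detection was called in 1 of 4 irradiated and 3 of 4 non-irradiated sera (two-sided Fisher's exact test, p = 0.486).

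Across the array, 8 of 208 miRNAs tested (3.85%) passed an adjusted p of 0.05, 4 higher and 4 lower in 7 Gy serum. Of the 6 miRNAs described here 3 entered this test and 0 passed (limma; 0 also at an unadjusted p under 0.05). For all 3, both groups had values at the floor of 100, so that their overlap was fixed by the floor. It can therefore not be read against the 25 of the 208 (12.0%) without overlap. With a floor of 1, 631 miRNAs were tested and 8 (1.27%) passed. No member passed where it was tested, which was in 27 of 28 settings for miR-34a-5p and miR-192-5p, 26 for miR-215-5p, 9 for miR-194-5p and 0 for miR-34b-5p and miR-34c-5p. In serum, fewer copies released by a tissue, fewer cells that release them, and less RNA recovered or labelled cannot be told apart.

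Each miRNA was read by 2 probes of 15 spots each, so the spots give a second view of the sera in which no miRNA was called. For miR-34a-5p the probe means were 640 ± 47.1 and 957 ± 75.6 on 7 Gy replicate 2 (SD, 15 spots), but only 0.876 ± 1.39 and 3.25 ± 2.21 on replicate 1. The 1000 negative control spots on each array averaged 1.10 to 1.97 with SDs of 1.90 to 2.72. Probe means on arrays without a detection call ranged over −1.49 to 7.53, within 3 SDs of the negative controls, and none held a spot well above background. These arrays therefore set only an upper bound near the background.

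Spots well above background numbered 30 of 120 at 7 Gy and 120 of 120 at 0 Gy for miR-34a-5p and for miR-194-5p alike. They numbered 30 at 7 Gy and 90 at 0 Gy for miR-192-5p, and 30 and 75 for miR-215-5p at 7 Gy and 0 Gy. For miR-34b-5p the counts were 15 at 7 Gy and 0 at 0 Gy, and for miR-34c-5p 0 at both doses. All the irradiated spots in these counts came from replicate 2.

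The 2 probes of a miRNA kept similar ratios where both were bright. For miR-34a-5p the ratio was 1.49 on 7 Gy replicate 2 and 1.60 to 1.69 on the 0 Gy arrays, against 2.63 on the dim 7 Gy replicate 4. The ratio for miR-194-5p was 2.40 on 7 Gy replicate 2 and 1.99 to 2.46 on the 0 Gy arrays. For miR-192-5p it was 2.22 on 7 Gy replicate 2 and 2.10 to 2.59 on 0 Gy replicates 1, 2 and 4, against 1.28 on the dim 0 Gy replicate 3. MiR-215-5p had the most unequal pair, at 6.08 on 7 Gy replicate 2 and 5.88, 6.76 and 10.1 on the 0 Gy arrays that detected it.

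**Figure D2:**
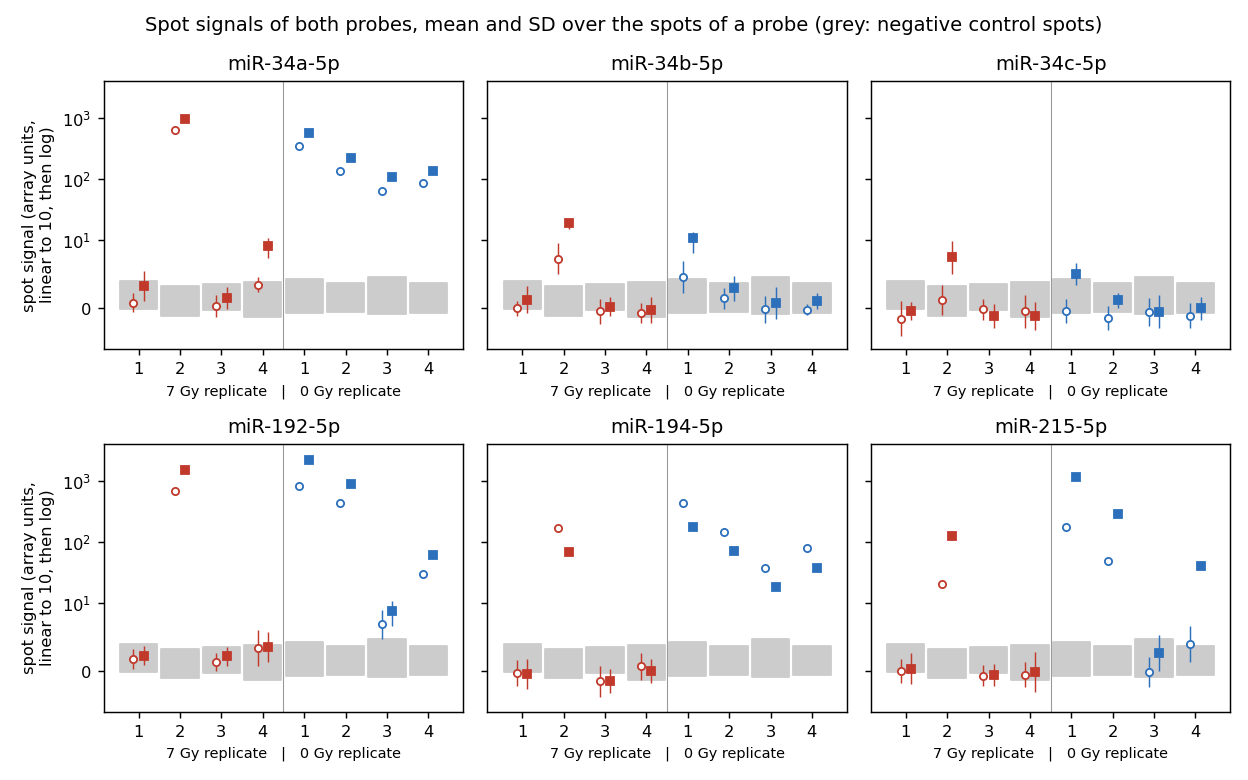
Spot signal (array units; linear to 10, then logarithmic) of the 2 probes of each miRNA, as mean and SD of 15 spots on each 7 Gy and 0 Gy array; grey bands are the mean and SD of the negative control spots. Except for the brighter miR-34a-5p probe on 7 Gy replicate 4, 7 Gy replicates 1, 3 and 4 lie near the negative controls, while 7 Gy replicate 2 reads 957 at the brighter miR-34a-5p probe.

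Tested on mean spot signals, scaled and with a floor of 1, the log2 difference was −2.79 for miR-34a-5p (exact permutation test, two-sided, p = 0.143) and −2.41 for miR-192-5p (exact p = 0.286). It was −4.42 for miR-194-5p (exact p = 0.0571) and −3.57 for miR-215-5p (exact p = 0.0857). The dim miR-34b-5p gave 0.55 (exact p = 0.714), with the sign turned to −0.10 when the arrays were not scaled. The smallest p that 4 against 4 sera allow is 0.0286. Without 7 Gy replicate 2, the values were −4.22 for miR-34a-5p, −5.79 for miR-194-5p and −4.77 for miR-215-5p, each at the smallest exact p of 3 against 4 sera, 0.0571. For miR-192-5p it was −3.95 (exact p = 0.114), and the groups overlapped. The irradiated sera left in these values are replicates 1, 3 and 4, whose labelling controls were out of range. For miR-194-5p and miR-215-5p all of them lay at the floor of 1. The size of those differences is thus set by the floor and the 0 Gy sera. The part of labelling in this separation was not tested.

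Within both slide rows, which held 2 sera of each group, the floor of 1 gave negative log2 differences. These were −2.37 in the first row and −5.25 in the second for miR-34a-5p, −3.94 and −2.97 for miR-192-5p, −3.08 and −4.48 for miR-194-5p, and −4.32 and −1.70 for miR-215-5p. For miR-192-5p, miR-194-5p and miR-215-5p the irradiated sera of the second row held only placeholders, which lay at the floor of 1. Their differences there could not be positive, and the size is that of the 0 Gy mean above the floor. Labelling controls were out of range on both of these irradiated arrays. At the floor of 100 the second row gave 0 for all 4, since none of its values reached 100, and the first row gave 0.38 for miR-34a-5p.

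Ratios of signals within an array do not depend on its scaling, and they showed that the 4 detectable miRNAs were not in fixed proportion. The ratio of miR-34a-5p to miR-194-5p was 6.82 on 7 Gy replicate 2, against 1.54, 1.66, 3.05 and 1.91 on 0 Gy replicates 1 to 4. For miR-34a-5p to miR-215-5p it was 11.1 on 7 Gy replicate 2, against 0.693, 1.07 and 5.48 on 0 Gy replicates 1, 2 and 4. In both ratios the irradiated serum stood above the non-irradiated sera in which both miRNAs were detected, as a description of that serum with no test. In 0 Gy replicate 3, where miR-215-5p was not detected, mean spot signals of 85.2 for miR-34a-5p and 1.25 for miR-215-5p, which lay at background, leave room for a higher ratio. On 0 Gy replicate 4 only 15 of the 30 spots of miR-215-5p were well above background, all of them of 1 probe. The ratio of 5.48 and the others made with miR-215-5p on that array are therefore uncertain.

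The ratio of miR-192-5p to miR-215-5p was 15.0 on 7 Gy replicate 2, against 2.23, 3.95 and 2.22 on 0 Gy replicates 1, 2 and 4. Between miR-192-5p and miR-194-5p, which share the chromosome 19 cluster, it was 9.22 on 7 Gy replicate 2, against 4.93, 6.12, 0.159 and 0.775 on 0 Gy replicates 1 to 4. The value of 0.159 rests on miR-192-5p in 0 Gy replicate 3, where it was not well above background. Among the other 3 non-irradiated sera the ratio of these cluster partners still ranged over 0.775 to 6.12. The ratios of miR-34a-5p to miR-192-5p (0.739 on 7 Gy replicate 2, against 0.311, 0.271 and 2.47 on 0 Gy replicates 1, 2 and 4) and of miR-194-5p to miR-215-5p (1.63, against 0.452 to 2.87 at 0 Gy) lay inside the non-irradiated range.

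**Figure D3:**
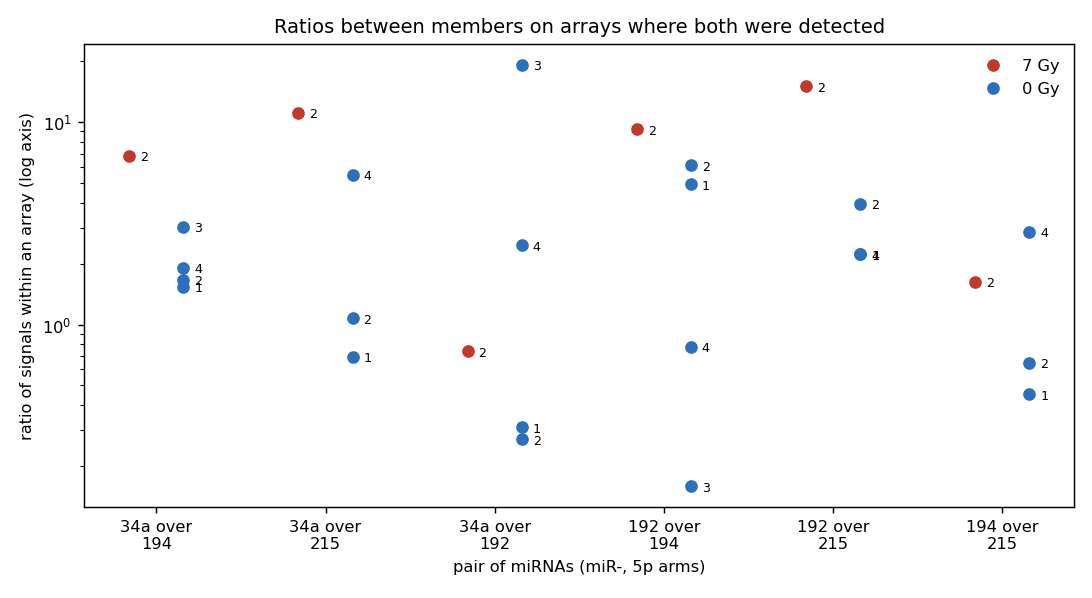
Ratio of the signals of 2 miRNAs within an array (log axis) for 6 pairs, on 7 Gy and 0 Gy arrays where both were detected, numbered by replicate. The 7 Gy point stands above all 0 Gy points for miR-34a-5p over miR-194-5p (6.82) and over miR-215-5p (11.1), and for miR-192-5p over miR-194-5p (9.22) and over miR-215-5p (15.0).

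**Figure D4:**
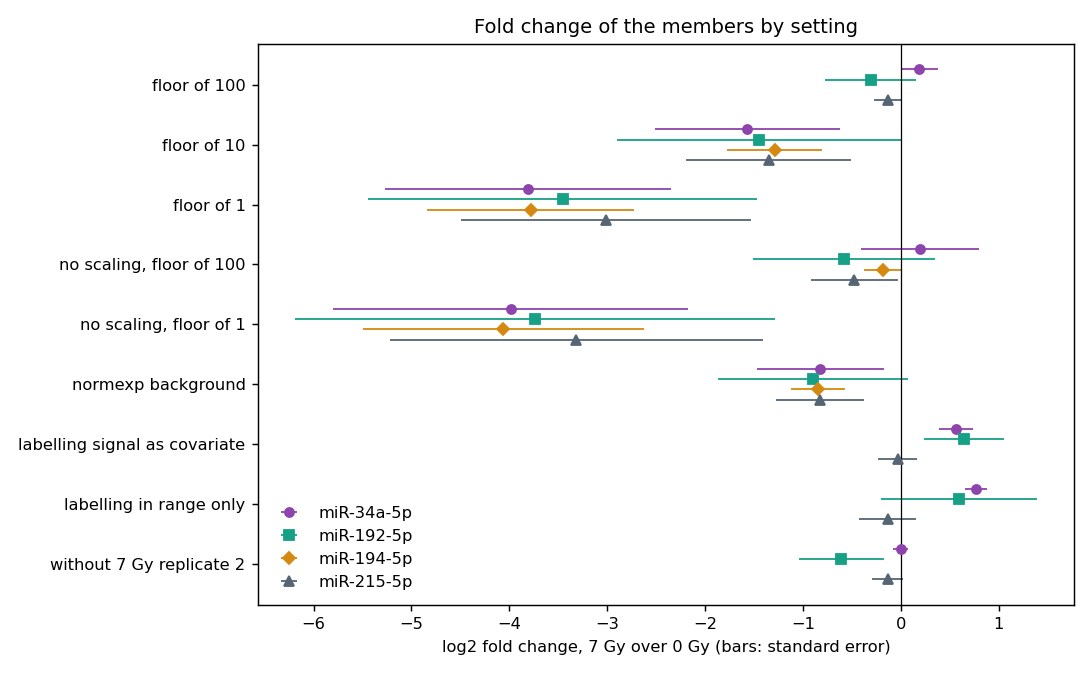
Log2 fold change of 7 Gy over 0 Gy serum (x axis; bars are standard errors from limma) under 9 settings, for the 4 miRNAs where they were tested. MiR-34a-5p lies at 0.19 with the floor of 100 and at −3.81 with a floor of 1; among these settings miR-194-5p is tested only where values under 100 are kept or the arrays are not scaled.

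Tissue markers were read beside these miRNAs. Many shared the members' detection on replicate 2 alone among the irradiated sera. This held for 5 of 9 hepatocyte, 6 of 10 intestinal, 3 of 6 kidney and 3 of 5 erythroid markers. It also held for 3 of 7 leukocyte, 3 of 4 endothelial and platelet, 3 of 6 muscle and 1 of 4 pancreas markers. The share was 9.89% of all 1881 miRNAs and 23.1% of the 804 detected anywhere. The marker signals did not share a single pattern. MiR-122-5p, the main hepatocyte miRNA, was detected in the irradiated sera on replicate 2 alone, at 806, and in 0 Gy replicates 1 to 4 at 179, 442, 5.26 and 95.2. Of 9 hepatocyte markers 8 were detected on at least 1 array, all but miR-802-5p, and their summed signal was 6318 to 12562 in 7 Gy sera and 7505 to 17233 in 0 Gy sera. None of the 6 tested passed, with a median log2 fold change of −0.19 (1 above 0 and 5 below), against 0.17 over all 208 miRNAs tested. MiR-21a-5p among them had 1567 in 7 Gy replicate 2, no detection in the other irradiated sera, and 4167, 1713, 328 and 942 in 0 Gy replicates 1 to 4 (log2 fold change −2.62; limma, adjusted p = 0.185, and 0.0197 without 7 Gy replicate 2). MiR-22-3p and miR-30a-5p of the same list were detected on all 8 arrays and did not follow this pattern. Much of the hepatocyte sum came from them. On 7 Gy replicate 1 they had 9554 and 3007, against a highest 7 Gy sum of 12562. On 7 Gy replicate 3 they had 4974 and 1344, against a lowest 7 Gy sum of 6318. MiR-30a-5p is also on the kidney list. The sums therefore do not show the level of miR-122-5p. MiR-22-3p had 9554, 3633, 4974 and 6595 in 7 Gy replicates 1 to 4 and 5166, 3732, 13975 and 7894 in 0 Gy replicates 1 to 4. The liver as a source of these signals was not tested.

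Set against miR-122-5p on the same array, miR-194-5p had a ratio of 0.0310 on 7 Gy replicate 2 and 0.0616 to 3.12 on the 0 Gy arrays. MiR-215-5p had 0.0190 on 7 Gy replicate 2 and 0.0955 to 0.812 on the 0 Gy arrays. Both lay below the non-irradiated sera with a ratio, which were 4 for miR-194-5p and 3 for miR-215-5p. The ratios of miR-192-5p (0.286 on 7 Gy replicate 2, 0.248 to 1.81 at 0 Gy) and miR-34a-5p (0.211 on 7 Gy replicate 2, 0.102 to 9.52 at 0 Gy) lay inside the non-irradiated range. The values of 3.12 and 9.52 rest on 0 Gy replicate 3, where miR-122-5p was dim, at 5.26. On the other 0 Gy arrays the highest ratios were 0.367 for miR-194-5p and 0.612 for miR-34a-5p.

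Of 10 intestinal markers, a list that holds the stromal miR-143-3p and miR-145a-5p beside epithelial miRNAs, 9 were detected, all but miR-147-3p, with summed signals of 308 to 702 in 7 Gy sera and 188 to 447 in 0 Gy sera. MiR-375-3p, also on the pancreas list, and miR-145a-5p carried most of the 7 Gy sums, with 126 and 181 in 7 Gy replicate 4. Detection went the other way, with 7 of the 10 found on more 0 Gy arrays and 0 on more 7 Gy arrays. Over the 804 miRNAs detected anywhere these shares were 33.6% and 20.1%. The 2 tested, miR-375-3p (log2 fold change 1.32, with a limma adjusted p of 0.117) and miR-145a-5p (0.64, with a limma adjusted p of 0.273), did not pass. For miR-375-3p the limma adjusted p was 0.00192 without 7 Gy replicate 4, its lowest irradiated serum. It was 0.102 to 0.276 without any other single array. Over the alternatives the log2 fold change of miR-375-3p stayed above 0, from 0.062 without scaling at a floor of 1 to 1.87 with spike-in scaling. Kidney markers were detected for 5 of 6, all but miR-196a-5p, and the sums were 1344 to 3007 in 7 Gy sera and 1353 to 2877 in 0 Gy sera. MiR-30a-5p, which is also on the hepatocyte list, alone had 3007 in 7 Gy replicate 1 and 1344 in 7 Gy replicate 3. These are the ends of the 7 Gy range. The 1 tested, miR-30a-5p, had −0.01 (limma, adjusted p = 0.991).

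All 5 erythroid markers were detected, with sums of 7322 to 25820 in 7 Gy sera and 16485 to 82112 in 0 Gy sera, and none passed (median log2 fold change −1.34). MiR-451a among them was at 83.5, 14871, 32.9 and 10.6 in 7 Gy replicates 1 to 4, and at 67369, 39046, 2762 and 5570 in 0 Gy replicates 1 to 4. Its order over the 0 Gy sera was that of miR-192-5p, and also that of miR-21a-5p and of the labelling controls. The log10 signal of these controls was 3.68, 3.45, 2.73 and 3.37 on 0 Gy replicates 1 to 4. Red cell content of the sera and the part of labelling in this order were not tested. Leukocyte markers (7 of 7 detected) summed to 122 to 492 in 7 Gy sera and 545 to 2077 in 0 Gy sera, and endothelial and platelet markers (4 of 4 detected) to 124 to 578 in 7 Gy sera and 776 to 932 in 0 Gy sera. In both lists the sums did not overlap, all 6 and all 3 tested miRNAs had log2 fold changes below 0, and none passed (limma). Of all 208 tested, 84 lay below 0. A miRNA without a detection call counts as 0 in these sums, and no share of non-overlap was worked out for other sums. The part of leukocyte, endothelial and platelet miRNAs in the values of the miR-34 and miR-192 groups was not tested.

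Only miR-34a-5p was detected on at least 6 arrays, the number needed to look for miRNAs with a like pattern. Over those 6 arrays, among 384 miRNAs detected on all of them, the highest Pearson r of log2 signal was 0.96 for miR-29c-3p, then 0.91 for miR-451a and 0.91 for miR-30a-3p. These are descriptions over arrays that differ in labelling, and miR-34a-5p itself spans mainly the gap to 7 Gy replicate 4.

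Other miRNAs linked to p53 gave a list of 25, made of reported p53 targets, miRNAs whose processing p53 aids, and miRNAs that act in its pathway. Of the 24 on the array, all were detected somewhere and 17 were tested, of which 0 were higher and 1 was lower in 7 Gy serum (limma; 1.92% of the 208 passed in each direction). Their median log2 fold change was −0.80, with 1 above and 16 below 0, against 0.17 over all 208. The list shares miR-15a-5p and miR-16-5p with the erythroid markers and several miRNAs with the liver and gut lists. On detection, 17 of the 24 were found on more 0 Gy arrays and 0 on more 7 Gy arrays, and 13 were found among irradiated sera on replicate 2 alone. Over the 804 miRNAs detected anywhere these shares were 33.6%, 20.1% and 23.1%, as given above.

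The one that passed was miR-25-3p, which is made from a cluster in an intron of Mcm7. Its signals were 43.4, 969, 49.6 and 24.2 in 7 Gy replicates 1 to 4 and 4499, 3400, 2456 and 1515 in 0 Gy replicates 1 to 4, with no overlap. It fell by 3.96 on the log2 scale, with a standard error of 0.81 (limma, adjusted p = 0.0474), but the call was lost under 20 of 27 alternatives. The adjusted p was 0.000735 without 7 Gy replicate 2, 0.0922 to 0.157 without any other single array, and 0.776 over the arrays with labelling controls in range, the highest of all. The log2 fold change was −2.20 with the labelling covariate and −1.50 over the arrays with labelling controls in range.

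MiR-29a-3p, which represses collagen mRNAs, had 1190, 2558, 288 and 517 in 7 Gy replicates 1 to 4 and 4637, 3148, 2978 and 3424 in 0 Gy replicates 1 to 4. These did not overlap either, but the log2 fold change of −2.09 did not pass (limma, adjusted p = 0.117). It passed without 7 Gy replicate 2 (limma, adjusted p = 0.00919) and with the slide row as a block (limma, adjusted p = 0.0431), but not under the other 25 of 27 alternatives. The log2 fold change of miR-29a-3p was −0.70 with the labelling covariate (limma, adjusted p = 0.705). Over the arrays with labelling controls in range, which hold a single irradiated serum, it was −0.45. MiR-22-3p, which represses p21 in human cells, had −0.23 (limma, adjusted p = 0.723) and was detected on all 8 arrays. MiR-16-5p, which represses cyclins and the anti-apoptotic BCL2 in human cells, had 810 in 7 Gy replicate 2 and was not detected in the other irradiated sera. In 0 Gy replicates 1 to 4 it had 6893, 4356, 63.2 and 68.3, which gave a log2 fold change of −2.13 (limma, adjusted p = 0.434).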

How the data were processed

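Serum RNA (30 ng per array) was labelled with Cy3 by the authors and hybridised to Agilent mouse miRNA arrays. The deposited intensity values are Agilent Feature Extraction output, with background subtracted, probes of a miRNA summed and no normalization between arrays. The version is 11.5 in the submitters' processing notes, whereas the paper's methods name another.

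Arrays were brought to the geometric mean of their 90th percentiles over 1881 miRNAs, values under 100 were set to 100 (whether the study replaced or removed low values is not stated), and log2 was taken. Of 633 miRNAs detected on at least 3 of 8 arrays, 425 lay at the floor throughout and 208 were tested with limma 3.58.1 in R 4.3.3 (lmFit, eBayes, Benjamini-Hochberg over the 208). For single values, exact permutation tests (two-sided) ran over the 70 arrangements of 8 arrays, and detection calls with Fisher's exact test (scipy 1.17.1). Spot tests used the mean processed signal of both probes. No spot was saturated, and precision is limited by the number of arrays.

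The miRNAs named were the 6 members, their other arms, up to 4 tested miRNAs of highest mean signal in the lists of p53-linked, hepatocyte and intestinal miRNAs and of seed relatives, any of them that passed, and the 3 most like each member detected on 6 or more arrays. MiR-486a-5p was added after its values were seen. The members and lists were chosen with earlier results of these data known. Hairpins and mature sequences came from RefSeq (GRCm38.p6). The mature sequence of miR-34c-5p is not printed here. Alternatives covered the scaling, floor, signal column, background correction (normexp, offset 50), filter, variance prior, blocks, a labelling covariate and leaving out arrays.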

Additional observations from a re-analysis of the deposited data

Results flagged for a closer look

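In 10 groups of 4 sera in which a miRNA was detected at all, 5 held a serum whose gap to the next one exceeded the 95% limit of Dixon for 4 values as a share of the range. The chance rate of about 1 in 20 groups does not apply to them, since the other sera held placeholders or signals near background, so that almost any measured value would stand apart. In 4 of the 5 it was 7 Gy replicate 2, with a scaled signal of 170 for miR-34a-5p, 230 for miR-192-5p, 25.0 for miR-194-5p and 15.3 for miR-215-5p, while the other irradiated sera were at 2.03 or lower. These 4 values share an array and are not independent of each other. The fifth was miR-34b-5p in 0 Gy replicate 1, with 1.18, where the other 3 non-irradiated sera had no detection call.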

How the results depend on the processing

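MiR-34a-5p, miR-192-5p, miR-194-5p and miR-215-5p passed under none of the settings in which they were tested. The count of miRNAs called over the whole array (8) was 18 with scaling to the 75th percentile over miRNAs that every array detected, 28 with a floor of 10, 18 with normexp, 26 with the slide row as a block and 4 with trend and robust priors. It was 2 without a floor, 1 with labelling controls in range only, and 0 without scaling, with spike-in scaling, with the labelling signal as a covariate, and without scaling at a floor of 1, a setting chosen after seeing the data. At an unadjusted p under 0.05, these 4 fits had 1 higher and 17 lower, 19 and 8, 12 and 21, and 7 and 82. The methods' t-test called 48 (34 higher, 14 lower) and 2 after Benjamini-Hochberg. With the replicate number as a block 0 were called (47 higher and 18 lower unadjusted). Same-numbered arrays correlated at −0.34, 0.43, 0.55 and 0.42 in their deviations, and differently numbered ones at −0.72 to 0.71. Same-numbered arrays also shared a slide row, replicates 1 and 2 the first and replicates 3 and 4 the second. Since 1 pair was negative and no label gives a shared batch, the sera were not taken as pairs. Leaving out single arrays gave 1 to 70 calls, with 70 without 7 Gy replicate 2 and 1 without 0 Gy replicate 1 or 2.

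For miR-34a-5p the log2 fold change of 0.19 turned to −1.57 with a floor of 10, −3.81 with a floor of 1, −4.39 with no floor, −2.79 with summed spot signals, −0.82 with normexp and −3.99 without scaling at a floor of 1. Leaving out arrays moved it between −0.0023 and 0.25. For miR-192-5p it turned to 0.65 with the labelling covariate and 0.60 with labelling in range only, and lay between −0.61 and 0.055 when arrays were left out. Detection calls that required spots above 3 times their error gave 7 Gy minus 0 Gy differences of −3 arrays for miR-34a-5p, 1 for miR-34b-5p and −2 for miR-192-5p. The spot difference of miR-34b-5p turned to −0.098 without scaling, and that of miR-34c-5p could not be computed without 7 Gy replicate 2.

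Among the list miRNAs, spike-in scaling turned miR-22-3p to 0.45 and miR-30a-5p to 0.66. MiR-30a-5p also turned to 0.18 with spot sums and 0.11 with normexp. The labelling covariate and labelling in range only turned miR-16-5p to 0.87 and 0.13 and miR-21a-5p to 0.21 and 0.36. MiR-122-5p, at 0.0068, turned to −0.26 and −0.27 with the other 2 percentiles, −0.28 without scaling, −0.21 with quantile normalization, −1.64, −3.90 and −5.41 with floors of 10, 1 and none, −5.41 with spot sums, −1.02 with normexp and −4.18 without scaling at a floor of 1. Leaving out arrays gave −0.51 to 0.12 for miR-22-3p, −0.23 to 0.17 for miR-30a-5p and −0.75 to 0.47 for miR-122-5p. The causes were not tested. The median log2 fold change of all miRNAs tested was 0.17, against −0.09 without scaling, 0.36 with spike-in scaling, 0.47 with a floor of 1 and −0.41 without scaling at a floor of 1. MiR-34a-5p, miR-192-5p, miR-194-5p and miR-215-5p lay below this median at a floor of 1 with and without scaling.

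Signals near the negative controls on 7 Gy replicates 1, 3 and 4 limit the values of the miR-34 and miR-192 groups.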
